A study of Homo sapiens with 6 samples.

Results

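Histone genes were examined in xenografts of HT-29, an established line of human colorectal adenocarcinoma cells, on 6 one-colour arrays covering 3 pools of RNA. The members were all probe sets whose annotation names a histone gene by its current or older symbol, 111 of the 54675 probe sets on the array. They name 82 histone genes, pseudogenes and an antisense RNA included, of the 21359 genes in the annotation. Of these, 70 name only replication-dependent genes, 29 name only variant genes, 8 name the H3.3 genes H3-3A and H3-3B together with the pseudogene H3P6 or the microRNA gene MIR4738, and 4 name only pseudogenes or an antisense RNA (H1-9P, H4C10P, H2AC5P and H1-10-AS1). A single gene is named by 82 of the probe sets and several genes by 29. The control pool is labelled only as control xenografts, and whether these came from separate animals is not stated. The treated pool came from tumours heated with an electromagnetic field for 30 min on day 18 after cell injection and taken 4 h later, and the opposite-side pool from untreated tumours labelled as the opposite side of the treated ones. All hosts were Balb/c (nu/nu) mice, injected at 6 to 8 weeks of age in both femoral regions. Such athymic mice lack mature T cells and keep other leukocytes. The labels describe each group as pooled RNA read on 2 technical replicate arrays. Animals therefore have no replication here, and conditions were not tested against each other. Every SD below is that of the 2 arrays of a pool. A pool of bulk tissue also cannot tell fewer cells of a type from less RNA per cell.

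Histones are the proteins around which DNA is wound. The replication-dependent genes code for the bulk of H2A, H2B, H3, H4 and linker histone H1, sit in clusters, are transcribed mainly in S phase, and mostly give mRNAs that end in a stem-loop instead of a poly(A) tail. Variant histones such as H2A.Z, macroH2A and H3.3 are encoded by genes outside the clusters, are made throughout the cell cycle and have ordinary polyadenylated mRNAs. H2AX is an exception and can end in either way. The labels name the standard Affymetrix labelling protocol, which as background starts from the poly(A) tail. Some replication-dependent genes also produce polyadenylated forms. The share of each form in these values was not tested.

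Of the 63 replication-dependent genes named, 57 matched a start-site window in RefSeq (GRCh38.p14), with 49 on chromosome 6, 7 on chromosome 1 and 1 on chromosome 12. The 14 variant genes, with H3-3A and H3-3B among them, lay on 10 chromosomes. The 200 bases before the start site are shown for genes of the probe sets past the size rule defined below (H2BC4, H2AC18 and H3-3B), for H1-2, which came near it, and, for contrast, for H2AZ1, whose probe sets hardly differed. Capitals mark the CCAAT box (CCAAT), the TATA box (TATAAA), the octamer of H2B promoters (ATTTGCAT) and the H1 box (AAACACA), each searched on both strands. No one of these motifs contains another.
H2BC4, chr6:26123927-26124126, minus strand: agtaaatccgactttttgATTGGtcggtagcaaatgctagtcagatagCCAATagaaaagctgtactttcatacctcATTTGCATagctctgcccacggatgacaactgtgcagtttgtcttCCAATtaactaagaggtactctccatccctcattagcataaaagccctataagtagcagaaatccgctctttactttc
H2AC18, chr1:149842751-149842950, minus strand: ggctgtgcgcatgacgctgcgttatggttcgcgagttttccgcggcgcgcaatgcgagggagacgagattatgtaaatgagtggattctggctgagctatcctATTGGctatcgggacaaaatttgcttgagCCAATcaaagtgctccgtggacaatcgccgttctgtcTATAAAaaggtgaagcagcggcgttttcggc
H1-2, chr6:26056471-26056670, minus strand: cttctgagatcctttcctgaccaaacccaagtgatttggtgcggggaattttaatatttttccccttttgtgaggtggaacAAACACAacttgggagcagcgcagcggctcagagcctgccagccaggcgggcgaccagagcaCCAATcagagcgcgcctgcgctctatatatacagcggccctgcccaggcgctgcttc
H3-3B, chr17:75779780-75779979, minus strand: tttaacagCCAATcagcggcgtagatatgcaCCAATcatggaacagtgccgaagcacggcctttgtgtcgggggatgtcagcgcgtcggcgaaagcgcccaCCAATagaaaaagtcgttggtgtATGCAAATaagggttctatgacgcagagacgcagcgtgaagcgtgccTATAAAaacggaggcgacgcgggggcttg
H2AZ1, chr4:99950276-99950475, minus strand: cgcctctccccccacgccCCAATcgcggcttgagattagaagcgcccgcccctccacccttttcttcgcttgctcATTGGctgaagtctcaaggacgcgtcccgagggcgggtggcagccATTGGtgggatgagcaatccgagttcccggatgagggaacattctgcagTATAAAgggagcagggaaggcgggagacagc

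CCAAT stood in 51 of 61 start-site windows of replication-dependent genes (83.6%), in 13 of 19 windows of variant genes (68.4%) and in 28.0% of all 35116 windows of that length. TATAAA stood in 35 (57.4%), 4 (21.1%) and 8.59%, and the octamer in 20 (32.8%), 1 (5.26%) and 1.31%. The octamer was in 14 of 18 H2B windows, and the H1 box in 6 of 6 H1 windows against 3.76% of all windows. The paired heat shock unit GAANNTTC, the core of the site bound by heat shock factors, stood in 2 of the 61 replication-dependent windows (3.28%), 2 of the 19 variant windows (10.5%) and 4.50% of all windows, and in none of the printed stretches but that of H2AZ1. The window of H2AC19 shared an identical run of 199 bases with that of H2AC18. The start sites of H2BC4 and H2AC6 lie head to head with 245 bases between them, so that 155 bases of the printed H2BC4 stretch also stand before H2AC6, on the other strand. A matching stretch of letters is a description and not a site.

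Values are on the log2 scale, so a difference of 1 is 2-fold. A probe set was taken as measured well where the mean of the 3 pool means was at or above 5, a level that 39 of the 111 members reached. They comprised 16 of 70 replication-dependent, 15 of 29 variant and all 8 shared H3.3 probe sets. A probe set passed the size rule where the difference between pool means was 1 or more, all 4 array-to-array differences had the same sign and neither array of the pool with the higher mean was under 5. The 2 arrays of a pool were close: the median absolute difference between them was 0.034 to 0.041 over the 39 histone probe sets and 0.048 to 0.057 over all 12287 probe sets of the array at that level.

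Among probe sets at or above 5, most replication-dependent ones read lower in the treated pool than in control, and the variants read on both sides. The replication-dependent ones at that level were 9 of H2B, 5 of H2A, 1 of H1 and 1 of H4, with 0 of H3. The median difference of the 16 replication-dependent probe sets was -0.27, with a range of -1.07 to 0.09, and that of the 15 variant probe sets was 0.04, with a range of -0.65 to 0.17. The median of all 12287 probe sets was -0.02. All treated arrays lay below all control arrays for 13 of the 16 replication-dependent probe sets and above them for 2, whereas the variants had 5 below and 8 above. Such non-overlap is common on these arrays, with 40.6% of the 12287 probe sets below and 33.9% above. The median of the replication-dependent class was -0.31 to -0.23 over the 4 array pairs, and that of the variants 0.02 to 0.06, so these ranges did not overlap and the class medians lay 0.31 apart. The classes were defined with earlier results of these data known.

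**Figure D1:**
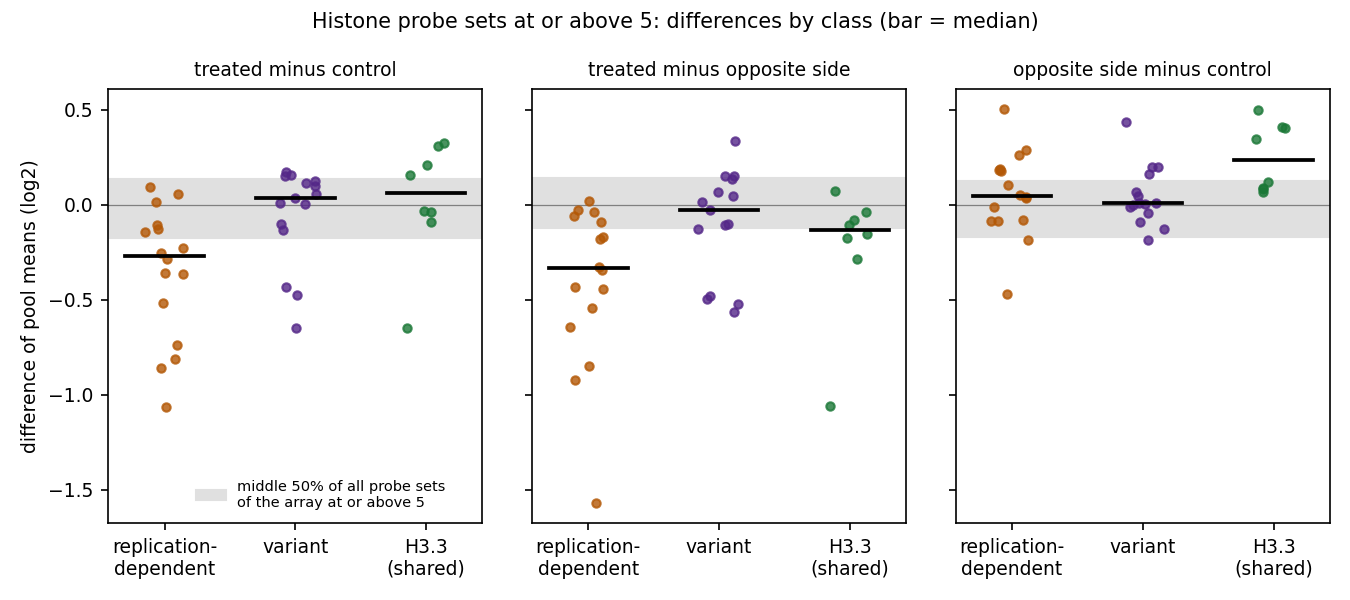
Differences of pool means (log2) for the 16 replication-dependent, 15 variant and 8 shared H3.3 probe sets at or above 5, one point per probe set and one panel per comparison. The bar is the class median and the grey band holds the middle 50% of all 12287 probe sets at that level. The replication-dependent median lies at -0.27 and -0.33 in the panels that involve the treated pool and at 0.05 in the remaining one.

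Past the size rule, 2 of the 111 histone probe sets were lower in treated against control and 0 were higher. Of all 54613 probe sets without the array's controls, 0.0549% were lower and 0.181% higher. Both histone probe sets belonged to the replication-dependent class, 1 of H2B and 1 of H2A.

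H2B genes, whose product pairs with H2A on the nucleosome, held 1 of the probe sets past the rule. H2BC4, on 236193_at, read 5.40 and 5.52 on the control arrays, 3.61 and 3.74 on the treated arrays and 5.05 and 5.02 on the opposite-side arrays. The treated arrays stood below both other pools with no overlap. The pool means differed by -1.79, and because the treated mean of 3.67 ± 0.087 (SD, 2 arrays) lies below 5, the treated pool was at least 1.38-fold lower. A probe set that names H2BC4 with 4 other H2B genes, 208490_x_at, did not follow: it read 5.43 and 5.30 in control, 5.46 and 5.45 in treated and 5.73 and 5.52 in opposite-side arrays, with treated slightly above control. Another with the same 5 names, 214455_at, lay below 5 throughout, at 4.23 and 4.19 in control and 3.14 and 3.49 in treated arrays. With a floor of 6, H2BC4 no longer passed the rule.

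The other H2B probe sets were lower in the treated pool by smaller amounts. The probe set shared by H2BC11 and H2BC8, 210387_at, read 6.55 and 6.64 in control, 5.85 and 5.71 in treated and 6.02 and 6.23 in opposite-side arrays. The opposite-side arrays lay between the other pools, and the treated minus control difference was -0.81. H2BC5 had a probe set at -0.52 (222067_x_at) and another at -0.14 (209911_x_at). H2BC6 differed by -0.36, H2BC21 by -0.36, H2BC12 by -0.29, H2BC12L by -0.25 and H2BC9 by -0.11. Of the 9 H2B probe sets at or above 5, 8 had every treated array below every control array, against 40.6% of all 12287 probe sets at that level. The median of the 9 was -0.29. Many of these probe sets can read near-identical family members, so the gene names are uncertain.

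Among H2A genes, which code for the partner of H2B, the H2AC18 and H2AC19 pair stood apart. Its probe set 214290_s_at read 7.88 and 7.85 in control, 6.82 and 6.77 in treated and 8.38 and 8.36 in opposite-side arrays. The pools did not overlap, with treated lowest and opposite side highest. The treated minus control difference of -1.07, or 2.10-fold lower, passed the rule. A second probe set of the pair, 218280_x_at, read 7.30 and 7.39 in control, 6.75 and 6.46 in treated and 7.51 and 7.54 in opposite-side arrays, in the same order of pools, and differed by -0.74. Another, 218279_s_at, lay below 3 on every array.

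The remaining H2A probe sets at or above 5 hardly differed. H2AC6, which faces H2BC4 across the stretch printed above, read 7.93 and 7.83 in control, 7.79 and 7.71 in treated and 8.01 and 7.86 in opposite-side arrays. Its treated minus control difference was -0.13. H2AC25 differed by 0.01 and H2AC14 by 0.05. The 5 H2A probe sets had a median of -0.13.

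H1-2, a linker histone that binds where DNA enters and leaves the nucleosome, read 7.12 and 7.15 in control, 6.28 and 6.27 in treated and 7.07 and 7.18 in opposite-side arrays. The treated arrays lay below both other pools, and the control and opposite-side arrays overlapped. The difference of -0.86 (treated 6.28 ± 0.0049 against control 7.14 ± 0.025) fell short of the minimum of 1. The other 6 probe sets of clustered H1 genes lay below 5.

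H4 was represented by 1 probe set at or above 5 of 15, and H3 by none. The H4 probe set, 205967_at, names H4C1 and 13 other genes. The other probe sets with the same names lay below 5. Among them, the mean of the pool means was 2.68 for 207046_at and 4.13 for 208580_x_at, against 10.57 for 205967_at. Which of the named genes 205967_at reads was not tested. Probe set 205967_at read 10.71 and 10.70 in control, 10.49 and 10.47 in treated and 10.52 and 10.52 in opposite-side arrays. Both pools from the treated animals lay below control, by 0.23 and 0.19, and they differed from each other by 0.04. With the spike-in scaling described further on, the opposite-side difference came to -0.01. All 11 probe sets of clustered H3 genes alone, and the 2 that also name H2AC7, lay below 5, so no H3 difference was measurable here. Of the 54 replication-dependent probe sets below 5, 40 were below 3 on every array.

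**Figure D2:**
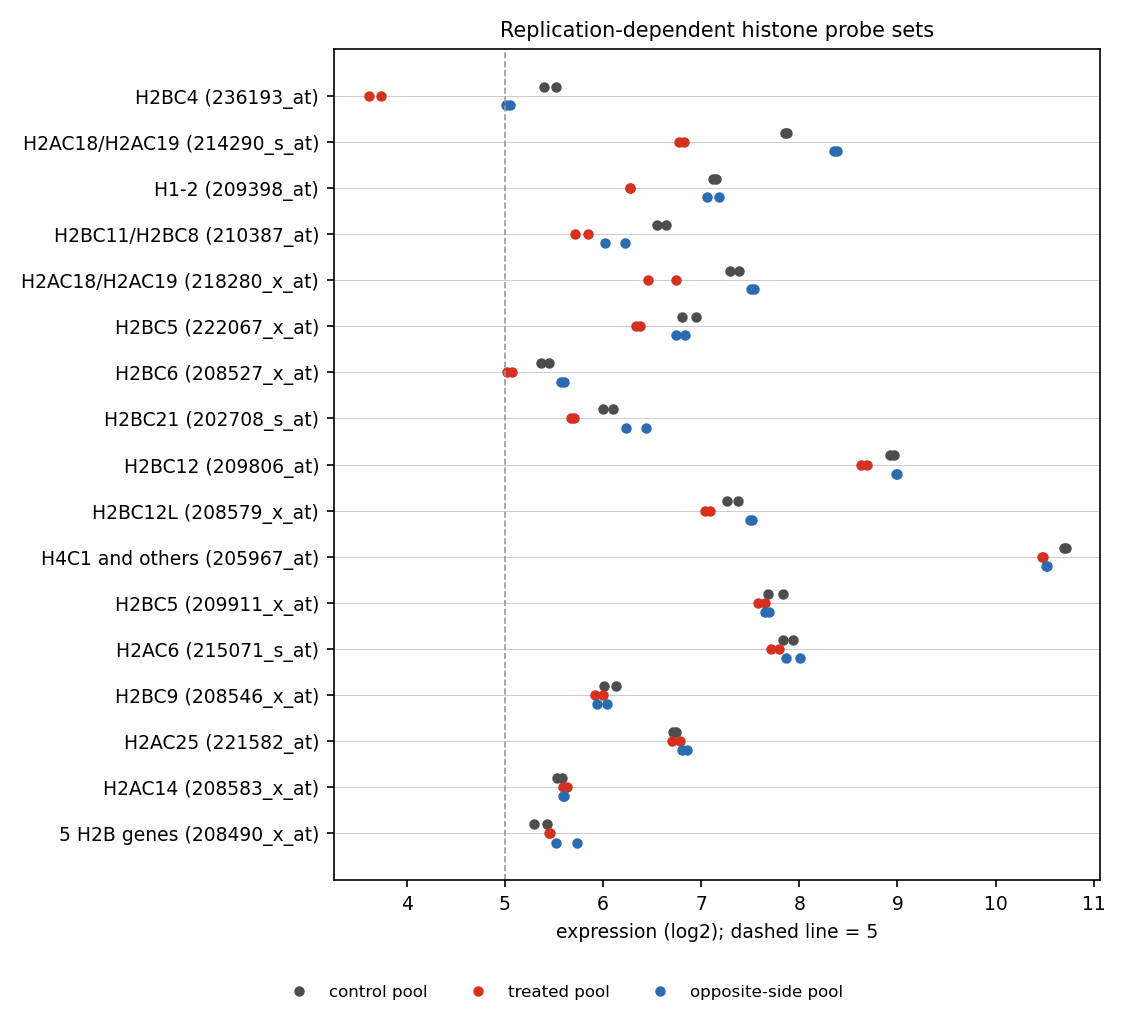
Expression (log2) on each of the 6 arrays for the 16 replication-dependent probe sets at or above 5 and for H2BC4, with 2 technical arrays per pool. The probe sets are ordered by the treated minus control difference, from -1.79 for H2BC4 at the top to 0.09 for the probe set shared by 5 H2B genes at the bottom. The dashed line marks 5.

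Variant genes split into those that hardly differed and a few with lower probe sets. H2AZ1, which codes for H2A.Z, a variant found at promoters, read 10.02 and 10.02 in control, 10.04 and 10.02 in treated and 10.01 and 10.02 in opposite-side arrays on 200853_at. The control and opposite-side arrays overlapped, the treated arrays lay just above both, and the difference was 0.01. Its other probe set, 213911_s_at, differed by 0.06. H2AZ2, the second H2A.Z gene, had 4 probe sets at 0.04, 0.12, 0.16 and 0.17. H2AX is the variant that is phosphorylated next to DNA breaks. On 205436_s_at it read 8.98 and 8.97 in control, 9.15 and 9.09 in treated and 8.80 and 8.77 in opposite-side arrays. Treated was highest and opposite side lowest, with differences from control of 0.15 and -0.19. With the spike-in scaling the opposite-side difference came to -0.012. The other H2AX probe sets lay below 5.

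H2AJ, an H2A variant encoded outside the clusters, was the variant gene whose probe sets at or above 5 were both lower in the treated pool. On 224301_x_at it read 8.63 and 8.68 in control, 8.27 and 8.10 in treated and 8.63 and 8.70 in opposite-side arrays, and on 225245_x_at 8.83 and 8.77, 8.31 and 8.42, and 8.85 and 8.88. On both probe sets the treated arrays lay below the other pools. The differences from control were -0.47 and -0.43, within the range of the replication-dependent class. The other 2 H2AJ probe sets lay below 5. Both that were read are of the _x_at kind, whose probes can match other transcripts.

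H1-10, a linker histone variant, read 7.48 and 7.39 in control, 7.30 and 7.31 in treated and 7.92 and 7.83 in opposite-side arrays. The opposite-side arrays were the high ones, and treated minus control was -0.13. Probe sets of 1 gene disagreed for MACROH2A1, a variant with a large extra domain that is enriched on the inactive X chromosome. On 229593_at it read 6.07 and 6.08 in control, 5.38 and 5.47 in treated and 5.81 and 6.08 in opposite-side arrays, a treated minus control difference of -0.65. Its other 4 probe sets that reached 5 had differences of -0.10, 0.00, 0.10 and 0.11.

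The 8 shared H3.3 probe sets, which cannot separate H3-3A from H3-3B, disagreed in the same way. The product of these genes replaces clustered H3 outside S phase. A probe set that names H3-3A alone, 213826_s_at, lay below 5. Its pool means were 4.58 in control, 4.36 in treated and 4.47 in opposite side. Probe set 211998_at read 7.62 and 7.60 in control, 6.91 and 7.01 in treated and 8.06 and 7.98 in opposite-side arrays, with treated lowest, and differed by -0.65. The other 7 ran from -0.09 (211940_x_at) to 0.32 (211997_x_at) in the same comparison, and the median of the 8 was 0.06. The 3 others annotated with MIR4738 differed by 0.21, 0.31 and 0.32. Which transcript forms these probe sets read was not examined.

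**Figure D3:**
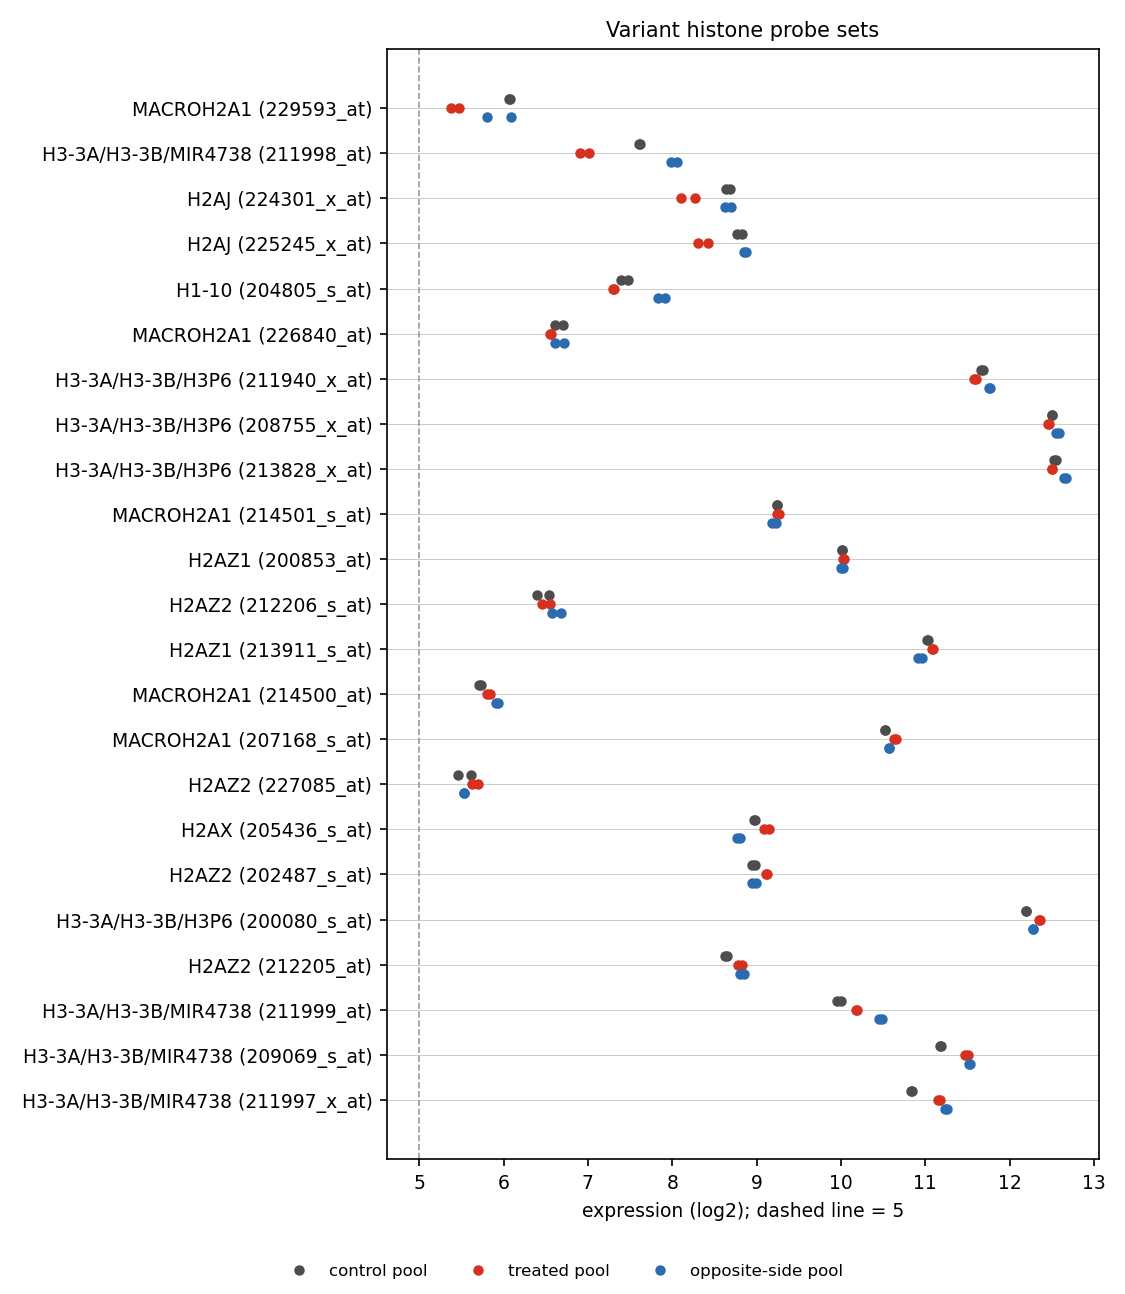
Expression (log2) on each of the 6 arrays for the 15 variant and 8 shared H3.3 probe sets at or above 5, with 2 technical arrays per pool, ordered by the treated minus control difference. Single probe sets of MACROH2A1 and H3.3 at the top, both at -0.65, lie apart from the others of the same genes. The dashed line marks 5.

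Against the opposite-side pool, the treated pool was again lower for most replication-dependent probe sets at or above 5. This comparison shares the treated arrays with the one above, so it is not independent of it. The median was -0.33 for the 16 replication-dependent probe sets and -0.03 for the 15 variants, while that of all 12287 probe sets was 0.0025. Every treated array lay below every opposite-side array for 14 of the 16 and above for 0, against 34.6% below and 36.2% above among all probe sets at that level. For the variants the counts were 7 and 7.

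Past the size rule, 3 histone probe sets were lower and 0 higher than in the opposite-side pool, where 0.0238% of all probe sets were lower and 0.0806% higher. H2AC18/H2AC19 on 214290_s_at differed by -1.57, or 2.97-fold, H2BC4 by -1.36 (at least 1.03-fold, the treated mean being below 5) and the H3.3 probe set 211998_at by -1.06, or 2.08-fold. For H2BC4, a floor of 6 ended the call here too. H2AC18/H2AC19 on 218280_x_at differed by -0.92, and it passed (-1.06) when treated array 1 was left out, for a count of 4. H1-2 differed by -0.85, H2BC21 by -0.65 and H1-10 by -0.57. The H2BC11/H2BC8 probe set differed by -0.34, and H2AX by 0.34, the highest of the variants. With 1 probe set per distinct set of named genes the variant median turned to 0.108, and that of the replication-dependent class was -0.25.

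Setting the arrays to the same median of 40 spike-in controls shifted the median of all probe sets by -0.19 in this comparison. H1-2 (-1.04) and 218280_x_at (-1.11) then passed as well, for a count of 5. The share of all probe sets past the rule with this scaling was not counted. With that scaling the replication-dependent median was -0.524 and that of the variants -0.215, each against the shifted median of all probe sets. Of the 7 variant probe sets above 0 in this comparison, 6 turned below it, among them both of H2AZ1, and H2AX stayed above at 0.15.

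Opposite-side and control pools differed little in either class. No histone probe set passed the size rule in either direction, where 0.0623% of all probe sets were lower and 0.0751% higher. The replication-dependent median was 0.05 and the variant median 0.01, against -0.02 for all probe sets. Opposite-side arrays lay above all control arrays for 9 of 16 replication-dependent probe sets and below for 2, and for 6 and 3 of 15 variants. The shares among all probe sets were 34.3% above and 40.7% below. H2AC18/H2AC19 on 214290_s_at was 0.50 higher and H1-10 0.43 higher, whereas H2BC11/H2BC8 differed by -0.47 and H2BC4 by -0.43. The 8 shared H3.3 probe sets all lay above control, by 0.07 to 0.50 with a median of 0.23. Probe set 213826_s_at, of H3-3A alone and below 5, differed by -0.11. The spike-in scaling shifted the median of all probe sets by 0.175 here and moved the replication-dependent median to 0.22 and the variant median to 0.18.

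Genes that supply, place or accompany histones did not share the difference of the replication-dependent class. These lists were also drawn up with earlier results known, and a gene with several probe sets was read from the one of highest mean. Of 23 measured genes for histone transcription and mRNA 3′ processing, 17 were at or above 5, 0 passed the size rule in any comparison, and the treated minus control median was -0.02. SLBP, the protein that binds the histone stem-loop, stood at 7.45 in control, 7.67 in treated and 7.46 in opposite-side pools. The cap-binding subunit NCBP1 differed by 0.49, the processing scaffold SYMPK by -0.31, the endonuclease CPSF3 by -0.27 and the cap-binding subunit NCBP2 by -0.26. Against the opposite side the list median was 0.13, smaller in size than the spike-in shift of -0.19 and of the other sign.

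Of 30 histone chaperone and exchange genes, 27 were at or above 5 and 0 passed. HIRA, the chaperone that deposits H3.3, stood at 6.53 in control, 7.44 in treated and 6.57 in opposite-side pools. Its differences of 0.91 and 0.88 were the highest of the list and short of the minimum. EP400, a subunit of an exchange complex for H2A.Z, differed from control by -0.43, SPTY2D1 by 0.36 and ASF1A, a chaperone of H3 and H4, by 0.36. The list median was -0.01.

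Of 37 measured DNA replication genes, 26 were at or above 5 and 0 passed, with a treated minus control median of -0.01 and a range of -0.42 to 0.35. The helicase subunits MCM5 and CDC45 differed by -0.42 and -0.39, the polymerase subunit POLA2 by -0.38 and the sliding clamp PCNA by 0.35. Against the opposite side the median was 0.04, also smaller in size than the spike-in shift of -0.19 and of the other sign. CENPA, the histone H3 of centromeres, lay below 5, at 4.68 in control and 4.82 in treated.

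**Figure D4:**
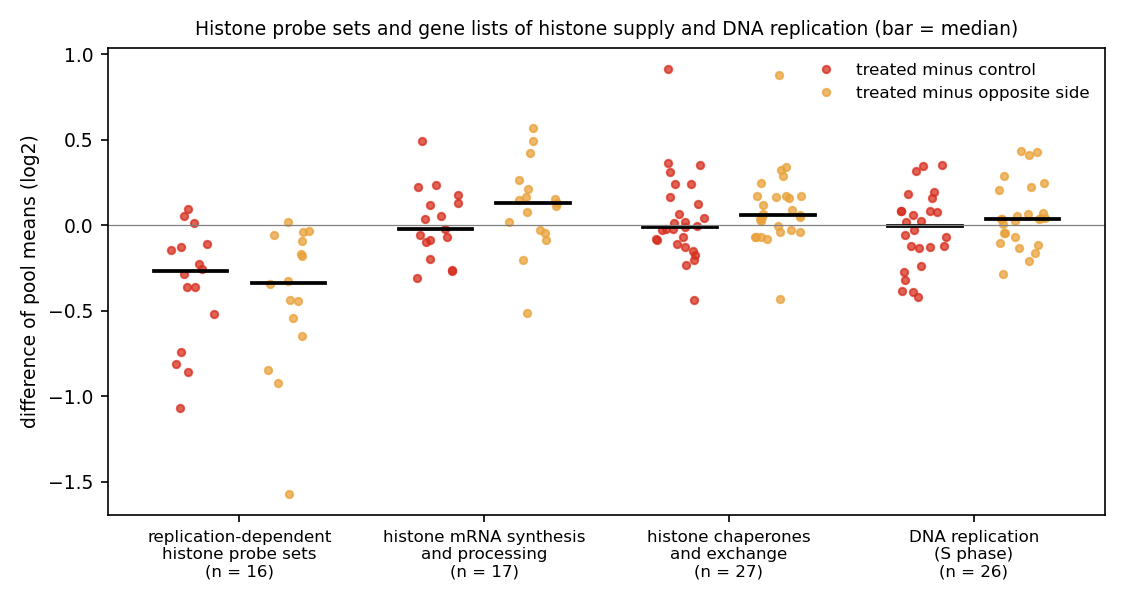
Differences of pool means (log2) of treated minus control and treated minus opposite side for the 16 replication-dependent probe sets and for the genes at or above 5 of 3 lists, one point per probe set or gene with the median as a bar. The histone medians lie at -0.27 and -0.33, and the list medians between -0.02 and 0.13.

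Other features of the pools moved beside these values. HSPA6 and DNAJB1, heat shock genes that check the treated label, exceeded control by 3.86 and 1.91 in the treated pool and by 0.96 and 0.04 in the opposite-side pool. Of the colon markers 9 of 12 were at or above 5, with the transcription factors CDX1 and CDX2 below 3 on all arrays. Their linear values summed to 32520 to 32575 in control, 35204 to 35474 in treated and 35537 to 35584 in opposite-side arrays. Fibroblast and matrix markers (3 of 8 at or above 5; DCN, LUM and PDGFRB below 3) summed on the linear scale to 325 to 363 in control, 759 to 773 in treated and 637 to 650 in opposite-side arrays. Skeletal muscle markers (2 of 7 at or above 5, with MYH2, MYL1 and CKM below 3) summed to 108 to 111, 204 to 215 and 144. The list members disagreed in treated minus control. MYL11 differed by 1.60 and ACTA1, with a mean below 5, by 2.17. TNNT3, the other marker at or above 5, differed by 0.06 and DES, below 5, by -0.14. Leukocyte markers (1 of 4 at or above 5) summed to 3054 to 3163, 3619 to 3667 and 3401 to 3491. This sum is almost all LYZ, at 11.59 in control, 11.82 in treated and 11.74 in opposite-side pools. PTPRC, CD14 and CSF1R were below 3 on all arrays, so the sum reads 1 gene and not leukocytes as a group. All 4 endothelial markers were below 3. For ACTB, treated minus control was 1.12 on the control probe set of the 5′ part and 0.23 on that of the 3′ part, and for GAPDH the values were -0.46 and -0.03. Against the opposite side they were -0.16 and 0.08 for ACTB and -0.45 and -0.03 for GAPDH. The part of these features in the histone differences was not tested.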

How the data were processed

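The deposited table held log2 values of 54675 probe sets on 6 arrays, with GCRMA credited to the submitters' processing notes without a version. The log2 scale was read from the values, whose lowest was 2.37 on every array. Arrays have no depth, and their number limits the precision. Members were found through the platform's annotation and current symbols in the RefSeq gene table, and the members and lists were chosen with earlier results of these data known. Pool means are means of 2 technical arrays. Named were all histone genes at or above 5, all probe sets past the size rule, up to 4 nearest to it, and up to 4 genes per list. SLBP was named beside these after its values were seen. Probe sets naming H3.3 genes with another gene were kept apart from the variants. Alternatives changed floor, minimum difference, averaging, scaling and probe sets, left out each array, or used limma 3.58.1 (R 4.3.3) over the 6 arrays, which compares pools against array error only. Class members with H3.3 were added after seeing the data. The size rule was tried on simulated data that held array error only, with changes placed in probe sets well above the floor. It therefore says nothing about spread between animals or about probe sets near the floor. Python 3.11.15, numpy 2.4.6 and pandas 2.3.3 were used. Same-numbered arrays did not deviate together (r of -0.0044 to 0.017), so the numbers pair nothing.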

Additional observations from a re-analysis of the deposited data

How the results depend on the processing

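Leaving out each array in turn left the size-rule counts at 2 against control, 3 to 4 against the opposite side and 0 between the unheated pools. The replication-dependent medians then ran from -0.31 to -0.25, from -0.39 to -0.28 and from 0.046 to 0.062, and the variant medians from 0.009 to 0.053, from -0.049 to -0.0035 and from -0.011 to 0.036. In treated against control the count was 1 with a floor of 6, with probe sets that name 1 gene or without the _x_at and _s_at kinds, and 7 at a minimum of 1.5-fold. Against the opposite side it was 1 with probe sets that name 1 gene, 5 with the spike-in scaling and 6 at 1.5-fold. The shares of all probe sets past the rule were not counted at these settings or with arrays left out. Whether these counts exceed the rest of the array is therefore not known. By limma, 15, 15 and 11 histone probe sets differed between pools beyond array error (adjusted p under 0.05) in the 3 comparisons, of which 9, 11 and 3 were lower, against 4.98%, 3.19% and 4.44% of all 54613 probe sets. With the technical replicate number as a replicate block the counts were 5, 2 and 1, against 0.712%, 0.159% and 0.390%. Without a floor the replication-dependent medians came to -0.00075, -0.002 and 0 and the variant median against control to 0.0025. Below 3 on every array were 40 of the 70 replication-dependent probe sets and 9 of the 29 variant ones. With 1 probe set per distinct set of named genes the replication-dependent median against the opposite side was -0.25. The variant medians were 0.086 against control and 0.108 against the opposite side. The variant median against the opposite side was -0.104 with a floor of 4, -0.065 without the _x_at and _s_at kinds, -0.104 with H3.3 included and -0.215 with the spike-in scaling, which gave -0.524 for the replication-dependent class. Between the unheated pools the replication-dependent median was 0.081 with equal medians, 0.071 with quantile normalization, 0.221 with the spike-in scaling and -0.0125 without the _x_at and _s_at kinds, and the variant median 0.041 with equal medians, 0.18 with the spike-in scaling and 0.068 with H3.3 included. Other causes were not tested. With 1 pool per group no spread between animals is known.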
